A study of Homo sapiens with 12 samples.

Results

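The response described here is that of parental MDA-MB-231 cells to TRAIL. MDA-MB-231 is a long-established human breast cancer line of the triple-negative kind, and TRAIL is a ligand of the tumour necrosis factor family. 6 of the series' 12 arrays carry this contrast: 3 of untreated parental cells and 3 of parental cells given TRAIL at 100 ng per ml for 2 h. The other 6 arrays are of the same line after it had been treated to resistance (TTR), 3 untreated and 3 with the same TRAIL dose and time, and they enter only through the shared estimate of spread and the test of whether the effect differs between the lines. Each of the 18417 genes stands for 1 of the 33252 features of the arrays, the one with the highest mean among the features naming that gene alone. Values are log2 levels, a change is the mean of the TRAIL arrays minus the mean of the untreated arrays, the value after ± is its standard error (SE) from the limma fit with n = 3 arrays a group, and a gene was called where the Benjamini-Hochberg adjusted p was under 0.05. The labels do not say that replicates were separate cultures, so the spread behind each p-value is that between these arrays and may be technical. In bulk RNA, fewer cells of a kind and less RNA per cell cannot be told apart.

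TRAIL binds the death receptors TNFRSF10A and TNFRSF10B, which recruit FADD and caspase-8 into a complex that starts apoptosis. The same receptors can also signal to NF-kB and the MAP kinases, whose first transcriptional output is a set of short-lived messengers, the immediate-early genes, followed by chemokines and by inhibitors of the signalling itself. Receptor levels, FLIP (CFLAR), the BCL2 family and the inhibitor of apoptosis proteins are known to set how far a cell goes towards death.

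TRAIL changed 10827 of the 18417 genes, 58.8% of those tested, with 5319 higher (28.9%) and 5508 lower (29.9%). Falls of at least 2-fold were more numerous than such rises, with 2439 genes (13.2%) against 776 (4.21%). At 4-fold or more the counts were near each other, with 225 rises and 223 falls. Rises reached further: 35 genes rose at least 16-fold, while the deepest fall was 8.69-fold. The TRAIL effect differed between the lines for 6852 genes (37.2%). The split between rises and falls depends on the scale. The median of all features was 4.29 to 4.31 on the untreated parental arrays and 4.58 to 4.61 on the TRAIL arrays. After centring each array on its median, 2328 genes were higher and 8608 lower, and after a further quantile normalization 3524 were higher and 5783 lower. Of changes of at least 2-fold, 472 were rises and 3522 falls with median centring, and 935 and 1716 with cyclic loess. The median change of all genes was 0.05 as deposited, −0.24 after median centring and −0.06 after quantile normalization or cyclic loess, and each list below is to be read against those values.

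The change went with the level of a gene. In 10 equal groups by mean level, the median change was 0.06 in the lowest, 0.33 in the fifth and −0.76 in the highest, where 15.8% of genes were higher and 70.2% lower. In the eighth and ninth groups 54.1% and 67.6% were lower, and lists of high level are to be read against such shares. Under cyclic loess, which removes a trend with level between arrays, the highest group still had a median of −0.26. The olfactory receptors, a large family of smell receptors not normally used in breast cells, lay at a median level of 2.62. Of the 341 measured, 38 were called higher and 4 lower, with a median change of 0.08 that was below 0 after median centring, quantile normalization and cyclic loess. Low levels can be background, since no detection call was used.

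**Figure D1:**
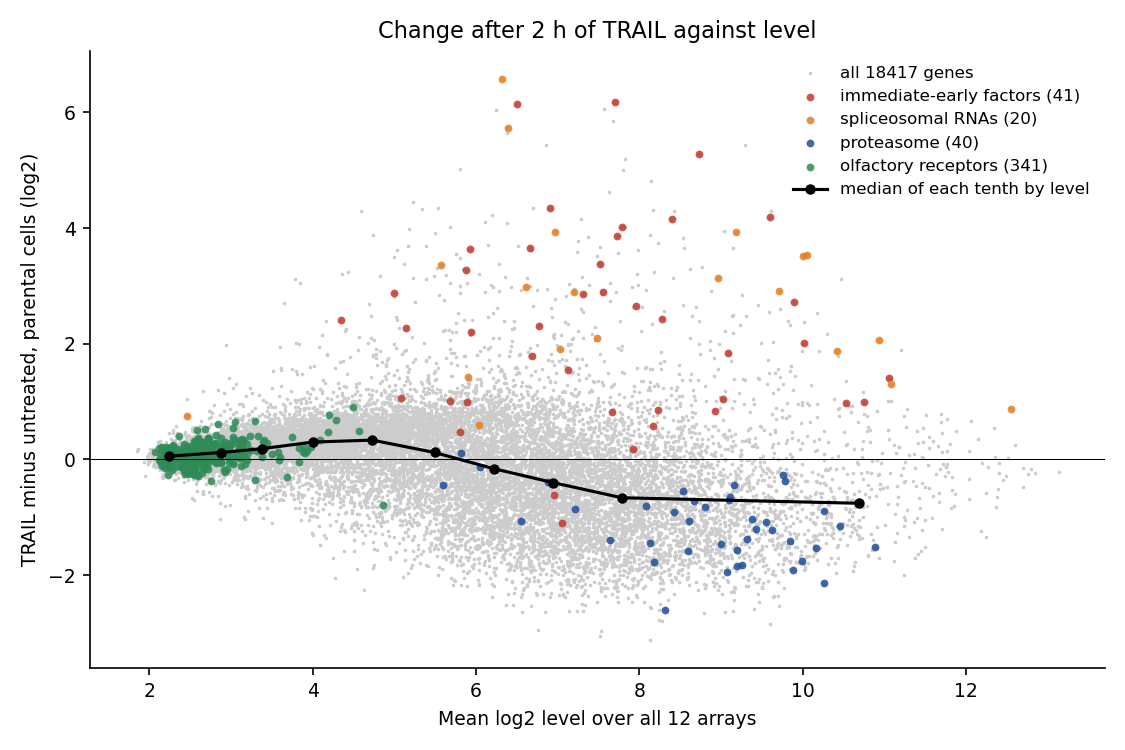
Change after TRAIL in parental cells (log2, vertical axis) against the mean log2 level over all 12 arrays (horizontal axis), with 1 grey point per gene, 4 gene groups in colour and the median of each of 10 equal groups by level in black. The median line ends 0.76 below 0 at high levels, with the proteasome genes around and below it and the immediate-early genes and spliceosomal RNAs mostly far above it.

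Markers of the labelled line lay at high levels and those of other cell types at low ones, though levels of different probes are not strictly comparable. All 12 basal and MDA-MB-231 markers were measured and their median level was 10.57 to 10.73 on untreated and 10.21 to 10.37 on TRAIL arrays, far above the upper quartile of all features (6.54 to 6.69 on the 6 parental arrays). The lists of other cell types lay low: the median level was 3.88 to 4.28 for 13 luminal markers, 3.17 to 3.42 for 13 blood cell markers and 3.25 to 3.68 for 13 fibroblast and endothelial markers over the same 6 arrays. Their summed linear levels ranged from 1259 to 1324 on untreated and 1108 to 1328 on TRAIL arrays for luminal cells, from 155 to 158 and 163 to 187 for blood cells, and from 186 to 197 and 216 to 241 for fibroblasts and endothelium. Of the 13 luminal markers 2 were higher and 3 lower, from FOXA1, higher by 0.80 ± 0.12, to EPCAM. EPCAM, an epithelial adhesion molecule, was at 4.85, 4.65 and 4.59 untreated and 3.78, 3.90 and 4.09 with TRAIL, a fall of 0.77 ± 0.11, and its other feature fell by 1.93. No marker is at 0 on this scale, and the part of these small shifts in the results was not tested.

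The largest rises were in transcription factors of the first response, in chemokines, in signalling inhibitors and in RNAs of the nucleus. The 25 largest rises were picked among called genes without overlap between the untreated and TRAIL arrays, a trait of 11454 of all 18417 genes. They spanned 19.6-fold to 95.8-fold, with an adjusted p of at most 2.61e-09 (limma). They were RNVU1-4, FOS, FOSB, RGS2, H2AC14, CXCL2, RNVU1-3, SNAI1, ID2, CXCL8, EGR1, CXCL1, MIR425, H2AC17, LOC731157, RASD1, RRAD, ZFP36, VAMP1, GADD45G, THUMPD3-AS1, H2BC21, DUSP1, H2AC11 and CCL20. All 25 were also higher with TRAIL in TTR cells and passed the threshold there, with a median change of 2.48 against 5.02 in parental cells. The 25 were chosen for the size of the parental change, which by itself favours a smaller change in TTR cells. The effect differed between the lines for 24 of the 25, the exception being EGR1 (adjusted p = 0.0847).

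**Figure D2:**
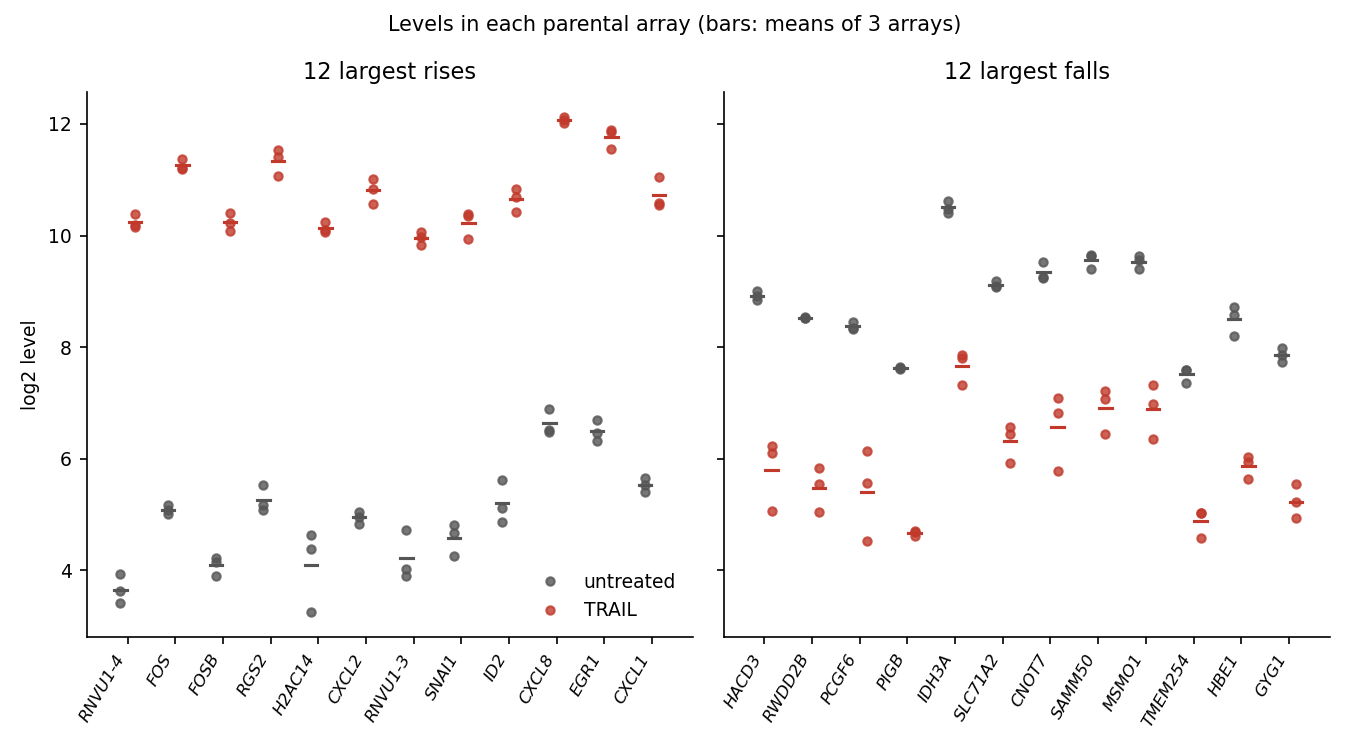
Log2 level (vertical axis) of the 12 largest rises (left) and the 12 largest falls (right) in each parental array; grey points are untreated, red points TRAIL, and bars the means of 3 arrays. Genes were picked so that their groups do not overlap, and the TRAIL arrays of several falling genes, such as HACD3 at 5.07 to 6.23, are spread more widely than the untreated ones.

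Promoter sequence was available from RefSeq (GRCh38.p14) for 19 of the 25 rises, from 250 bases before to 50 after the annotated start, and 13 of these held at least 1 of 5 searched motifs before the start on either strand. The motifs were the 10-letter NF-kB consensus, the serum response element (CArG box), the cyclic AMP response element TGACGTCA, the AP-1 site TGANTCA and the TATA box TATAAA, the last added after the values were seen. Shown here, 5′ to 3′ on the gene's own strand with the matches in capitals, are stretches with 4 of these kinds of match among the largest rises; the AP-1 match, in CXCL8, is not shown. FOS (chr14:75278785-75278810, plus strand), FOSB (chr19:45467956-45467981, plus) and H2AC17 (chr6:27893201-27893226, minus) carry TATAAA, at 33, 30 and 31 bases before the start. EGR1 (chr5:138465364-138465415, plus) carries 2 CArG boxes, CXCL1 (chr4:73869304-73869334, plus) and CXCL2 (chr4:74099253-74099283, minus) carry 2 overlapping NF-kB matches each, CCL20 (chr2:227813753-227813828, plus) carries an NF-kB match and TATAAA, and DUSP1 (chr5:172771210-172771330, minus) carries a cyclic AMP response element and TATAAA.
FOS: aaacgcttgtTATAAAagcagtggct
FOSB: gtcccgggcaTATAAAtacaggctgg
H2AC17: cagcagctgcTATAAAatgcgcgtcc
EGR1: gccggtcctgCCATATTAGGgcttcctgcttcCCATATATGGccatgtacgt
CXCL1: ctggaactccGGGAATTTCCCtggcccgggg
CXCL2: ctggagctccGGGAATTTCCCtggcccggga
CCL20: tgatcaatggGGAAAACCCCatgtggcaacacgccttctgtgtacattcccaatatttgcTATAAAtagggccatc
DUSP1: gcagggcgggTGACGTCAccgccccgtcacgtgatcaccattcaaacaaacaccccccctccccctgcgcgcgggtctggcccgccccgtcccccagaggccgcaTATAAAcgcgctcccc
Over the whole promoters, TATAAA occurred in 23 of the 64 available among the 100 largest rises (35.9%), in 2 of 79 among the 100 largest falls (2.53%) and in 1281 of 14237 over all genes tested (9.0%). Among protein-coding genes alone the share was 38.8% in the 100 largest rises, 2.53% in the falls and 8.99% in all. Histone genes supplied part of the share in the rises. Among the 25 largest rises, 9 held TATAAA before the start, including the histone genes H2AC14, H2AC17, H2BC21 and H2AC11. The share without histone genes was not computed. The NF-kB consensus was in 16 of 64 promoters of the rises, 15 of 79 of the falls (19.0%) and 12.4% of all. The cyclic AMP response element was in 7.81%, 3.8% and 2.65%, the CArG box in 3.12%, none and 1.22%, and the AP-1 site in 3.12%, 3.8% and 5.58%. A match is a description of these letters and not a bound site.

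The immediate-early factors rose almost as a whole: 38 of the 41 measured were higher and 2 lower, with a median change of 2.27 against 0.05 for all genes. FOS, which pairs with JUN in the AP-1 factor, was at 5.07, 5.01 and 5.17 on the untreated arrays and 11.20, 11.36 and 11.20 on the TRAIL arrays. EGR1, a zinc finger factor of the serum response, was at 6.46, 6.69 and 6.32 untreated and 11.86, 11.89 and 11.56 with TRAIL. Replicates lay close together and the groups far apart for both genes. FOSB rose by 6.15 ± 0.13, JUNB by 4.15 ± 0.10 and the stress kinase PLK3 by 3.65 ± 0.10. The exceptions were MAFG, a small partner of NRF2 and AP-1 factors (−1.10 ± 0.10), and the repressor KLF11 (−0.61 ± 0.12). The 3 features of MAFG disagreed, with changes from −1.10 to 0.71.

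Among chemokines, which draw in neutrophils and lymphocytes, 10 of 23 rose (43.5%) and 1 fell (4.35%). The list's median level of 3.66 lies in the fourth group by level, where 51.3% of all genes were higher and 8.03% lower. CXCL2 was at 4.96, 5.05 and 4.84 untreated and 11.02, 10.84 and 10.57 with TRAIL. CCL20, the ligand of CCR6, was at 2.60, 3.10 and 3.15 untreated and 7.92, 7.10 and 6.69 with TRAIL. The groups did not overlap for either, and CCL20 was below the untreated median of all features on each untreated array. CXCL3 rose by 3.05 ± 0.18 (8.28-fold), CXCL8 by 5.44 ± 0.17 and CXCL1 by 5.20 ± 0.17. CCL28 fell by 0.33 ± 0.10, and its call was lost without untreated array 2 (−0.24, adjusted p = 0.0626, limma). The list's median of 0.21 dropped below 0 with median centring, and most of its other members lay at low levels.

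Of 27 cytokines and inflammatory growth factors, 16 rose (59.3%) and 1 fell (3.7%), with a median change of 0.36. Their median level of 4.68 lies in the fifth group by level, where 54.1% of all genes were higher and 16.3% lower. TNFSF9, a costimulatory ligand for T cells, went from 6.68, 6.50 and 6.73 to 9.62, 9.66 and 9.76. PTX3, a secreted pattern-recognition protein, rose by 3.63 ± 0.18 (12.4-fold), the stress cytokine GDF15 by 2.34 ± 0.20, IL6 by 1.78 ± 0.13 and CSF3 by 1.49 ± 0.16. IL18 fell by 1.00 ± 0.11, from 7.06, 7.03 and 6.86 to 5.97, 5.89 and 6.08. Of 16 ligands of the EGF receptor and related growth factors, 4 rose and 6 fell. The largest move was of TGFA, an EGF receptor ligand, from 7.24, 7.49 and 7.31 down to 5.73, 5.04 and 5.52. ANGPTL4 rose by 0.93 ± 0.15 and FGF2 by 0.65 ± 0.11.

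Of 37 NF-kB subunits and regulators 13 were higher and 13 lower (35.1% each), near the 28.9% and 29.9% over all genes. NFKBIA, an NF-kB-induced inhibitor which holds NF-kB in the cytoplasm, went from 9.19, 9.19 and 9.14 to 12.36, 12.32 and 12.18. TNFAIP3 (A20), a ubiquitin-editing inhibitor, rose by 3.00 ± 0.20, NFKBIZ by 2.92 ± 0.10, the adaptor TRAF1 by 1.90 ± 0.11 and the subunit precursor NFKB2 by 1.70 ± 0.12. NFKB1, the other precursor, went from 7.92, 8.08 and 7.79 down to 6.64, 6.26 and 6.26, with no overlap. The kinase CHUK (IKK-alpha) fell by 1.38 ± 0.12, TAB2 by 1.36 ± 0.10, TANK by 1.23 ± 0.15 and MAP3K7 (TAK1) by 0.88 ± 0.09. The effect on NFKB1 differed between the lines (TTR minus parental 1.64, adjusted p = 5.22e-06), and NFKB1 changed by 0.10 in TTR cells (adjusted p = 0.753). The list's median of 0.09 changed sign with median centring.

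Inhibitors of MAP kinase and cytokine signalling rose in 19 of 33 cases and fell in 9, with a median of 0.54. DUSP1, a phosphatase that inactivates MAP kinases, went from 7.51, 7.43 and 8.01 to 11.89, 12.03 and 11.93. SOCS1, the inhibitor of JAK kinases, went from 4.78, 4.57 and 4.75 to 8.64, 8.84 and 8.93. RGS2, which shortens G-protein signals, rose by 6.07 ± 0.20, and the small Ras-like GTPases RASD1 and RRAD by 4.63 ± 0.14 and 4.46 ± 0.13. GADD45B rose by 3.74 ± 0.11. Among the falls were the SPRED proteins, which block RAF activation (SPRED1 −1.21 ± 0.12, SPRED2 −1.12 ± 0.11) and ERRFI1, the inhibitor of EGF receptor kinases (−0.77).

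Of 34 repressors and helix-loop-helix factors 23 were higher and 4 lower, with a median of 1.09. SNAI1, a repressor of E-cadherin, went from 4.81, 4.67 and 4.25 to 9.94, 10.34 and 10.38. HES1, the Notch-responsive repressor, rose by 3.20 ± 0.15, SOX4 by 2.54 ± 0.11, IRF1 by 2.22 ± 0.10 and CEBPB by 1.99 ± 0.11. ZEB1 fell by 0.86 ± 0.14 and SKIL by 0.63, so the mesenchymal repressors SNAI1 and ZEB1 moved apart. TGIF1 fell by 0.89 ± 0.10, with its 5 features between −0.90 and 0.21.

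The receptors and the complex that TRAIL acts through changed little in size on the deposited scale. Of the 13 measured members, 2 were higher (15.4%) and 7 lower (53.8%), beside 28.9% and 29.9% over all genes. In the seventh group by level, which holds the list's median level of 6.01, 30.5% were higher and 43.9% lower. On the deposited scale none of the 13 moved by 2-fold, whereas 4.21% of all genes were called with such a rise and 13.2% with such a fall. TNFRSF10A, the first death receptor, was at 6.67, 6.55 and 6.70 untreated and 6.07, 6.04 and 6.34 with TRAIL, a fall of 0.49 ± 0.11. TNFRSF10B, the second, was at 8.40, 8.56 and 8.33 untreated and 7.84, 8.04 and 7.69 with TRAIL, a fall of 0.57 ± 0.13 whose call was lost with quantile normalization and with cyclic loess. The decoy receptor TNFRSF10D rose by 0.40 ± 0.11, a call lost with median centring, and the soluble decoy TNFRSF11B (osteoprotegerin) fell by 0.95 ± 0.13. CASP8 was at 6.99, 7.13 and 7.05 untreated and 6.79, 7.16 and 6.89 with TRAIL; the groups overlapped and its change of −0.11 ± 0.10 was not called; it was called lower with median centring (−0.40) and was above 0 with quantile normalization and cyclic loess. Its adaptor FADD fell by 0.35 ± 0.12, a call lost with quantile normalization, without untreated array 1 (−0.28) and without TRAIL array 3 (−0.20), and reversed in sign with cyclic loess. CFLAR, the caspase-8 inhibitor FLIP, fell by 0.47 ± 0.09, a call lost with the mean of its 2 features (−0.24), and the adaptor TRADD by 0.60 ± 0.15. TNFRSF25 rose by 0.63 ± 0.09, and TNFRSF1A fell by 0.42 ± 0.09, a call lost with quantile normalization and reversed in sign with cyclic loess. TNFSF10, the gene of TRAIL itself, changed by −0.27 ± 0.19 (adjusted p = 0.229), CASP10 by −0.35 ± 0.17 (adjusted p = 0.0845) and FAS by 0.05 ± 0.10 (adjusted p = 0.717), none of them called. TNFSF10 and CASP10 were called lower with median centring, quantile normalization and cyclic loess, and CASP10 also with mean centring and when only the 6 parental arrays were fitted, with or without the replicate block. FAS was below 0 with those 3 scalings, with mean centring and without TRAIL array 1 (−0.02).

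Downstream of the receptors, 10 of 15 caspase and nuclease genes were lower (66.7%) and 2 higher (13.3%), with a median of −0.65. In the eighth group by level, which holds the list's median level of 6.71, 54.1% of all genes were lower and 22.2% higher. With cyclic loess the list's median was −0.51, against −0.14 for that group. CASP6, an executioner caspase, went from 6.54, 6.35 and 6.39 to 4.85, 4.16 and 4.62. The mitochondrial death factors AIFM1, HTRA2 and DIABLO fell by 1.37 ± 0.16, 1.35 and 0.93. Cytochrome c (CYCS) rose by 1.28 ± 0.15, from 7.16, 6.98 and 6.80 to 7.88, 8.42 and 8.49, and the mitochondrial nuclease ENDOG by 0.97. In the BCL2 family, where some members protect and others kill, 6 of 18 rose (33.3%) and 5 fell (27.8%), near the 28.9% and 29.9% over all genes. MCL1, a short-lived protector, rose by 1.35 ± 0.10. The BH3-only killers PMAIP1 (NOXA), BBC3 (PUMA), BCL2L11 (BIM) and BIK rose by 1.38 ± 0.12, 1.19 ± 0.13, 1.08 and 0.65. BID, the BH3-only protein that caspase-8 cleaves, fell by 1.36 ± 0.12 and the pore-former BAK1 by 1.02 ± 0.12. BCL2L1 (BCL-XL) fell by 0.59 ± 0.09, a call lost with cyclic loess. Of 7 inhibitor of apoptosis genes, 2 rose (28.6%) and 3 fell (42.9%), with NAIP higher by 0.94 and XIAP lower by 0.65 ± 0.15.

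Of 28 genes of the unfolded protein and integrated stress responses, 12 rose and 14 fell. PPP1R15A (GADD34), which reverses the translation block of this response, went from 8.07, 8.39 and 8.04 to 11.10, 11.06 and 10.88, and DDIT3 (CHOP) rose by 3.14 ± 0.16. The disulfide isomerase PDIA6 went from 10.11, 10.19 and 10.07 to 8.26, 7.71 and 8.05. The co-chaperone DNAJC3 fell by 2.10 ± 0.09 and the sensor ATF6 by 1.06. Of 18 heat shock genes 6 rose (33.3%) and 7 fell (38.9%), not far from the shares over all genes. HSPA2, an HSP70 best known from testis, rose 18.8-fold, from 4.85, 4.76 and 5.09 to 8.88, 9.13 and 9.38, and DNAJB1 rose by 1.44. HSPA4 and HSPD1 fell by 1.71 and 1.27. The medians of the first list changed sign with cyclic loess, and those of the second with quantile normalization and cyclic loess.

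Of 22 p53 target genes, 7 rose (31.8%) and 10 fell (45.5%), beside 28.9% and 29.9% over all genes. The cyclin kinase inhibitor CDKN1A (p21) rose by 2.16 ± 0.13 and GADD45A by 2.63 ± 0.12. MDM2, the ubiquitin ligase of p53, went from 9.34, 9.30 and 9.31 to 8.07, 8.22 and 8.69, and RRM2B fell by 1.91. Of 30 interferon-stimulated genes 8 rose (26.7%) and 13 fell (43.3%). IRF7 rose by 2.40 ± 0.11 and ISG15 by 1.03, whereas TRIM21 fell by 1.83 ± 0.13 and OAS2 by 1.36. Of 11 metallothioneins, metal-binding proteins encoded by near-identical genes that can share probes, 8 rose and none fell in the limma test (0 also at an unadjusted p under 0.05), with a median of 0.56. MT1X rose by 2.54 ± 0.11, and MT1M rose from 3.02, 2.96 and 2.89 to 4.85, 5.49 and 6.65, the widest spread among the TRAIL arrays of the genes named in this paragraph.

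Small RNAs of the nucleus rose as a class. Spliceosomal RNAs are the RNA parts of the spliceosome, and box C/D and box H/ACA RNAs guide the chemical modification of ribosomal and spliceosomal RNA. All 20 spliceosomal RNAs measured were higher, with a median of 2.90, and of 175 small nucleolar RNAs 120 were higher and 1 lower, with a median of 0.94. By comparison 27.4% of the 16899 protein-coding genes were higher and 32.1% lower. RNVU1-4, a variant of U1, was at 3.42, 3.62 and 3.93 untreated and 10.19, 10.15 and 10.38 with TRAIL, the largest rise of all (95.8-fold). Its untreated values lay below the median of all features (4.29 to 4.31), where levels can be background, so the fold is uncertain. The 8 U1 variants had a median change of 3.44. The 4 RNAs of the minor spliceosome, which removes a rare class of introns, all rose: RNU12 went from 5.15, 5.26 and 5.56 to 9.16, 9.35 and 9.24, and RNU11, RNU6ATAC and RNU4ATAC rose by 3.54 ± 0.18, 2.89 ± 0.17 and 2.06 ± 0.18. These families and the 4 minor spliceosome RNAs were chosen after the values were seen. Copies of one family differ by few bases, so which copy the signal comes from is uncertain.

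Among small nucleolar RNAs, 64 of 75 box C/D RNAs outside the SNORD115 and SNORD116 clusters rose and none fell in the limma test or at an unadjusted p under 0.05 (0 of 75), with a median of 1.37. SNORD61 went from 4.51, 4.24 and 4.39 to 8.30, 8.66 and 8.25, and SNORD54 rose by 3.69. Of 40 SNORD115 and SNORD116 copies, which are used in neurons, 2 were higher and 1 lower, at median levels of 2.08 to 2.18 on every parental array. Box H/ACA RNAs were higher in 54 of 61 cases (median 1.04) and Cajal body RNAs, which modify spliceosomal RNA, in 13 of 16 (median 1.31). SNORA65 and SNORA33 rose by 2.99 and 2.88. The scaling alternatives left these family medians above 0, other than that of the SNORD115 and SNORD116 copies with median centring.

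Clustered histone genes, whose messengers normally lack a poly(A) tail, rose in 37 of 57 cases and fell in 2, with a median of 0.50. Copies differed widely in how far they rose. H2AC14 was at 4.38, 3.25 and 4.64 untreated and 10.06, 10.09 and 10.23 with TRAIL, and H2AC17 at 5.77, 5.93 and 6.12 untreated and 10.93, 11.02 and 10.87 with TRAIL. H2BC21 rose by 4.31 ± 0.16, H2AC11 by 4.29 ± 0.11 and H4C9 by 3.88 ± 0.12. By class the rises were 9 of 14 H2A, 8 of 16 H2B, 7 of 8 H3, 10 of 13 H4 and 3 of 6 H1 genes. Histone copies are near-identical, so these assignments are uncertain too.

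**Figure D3:**
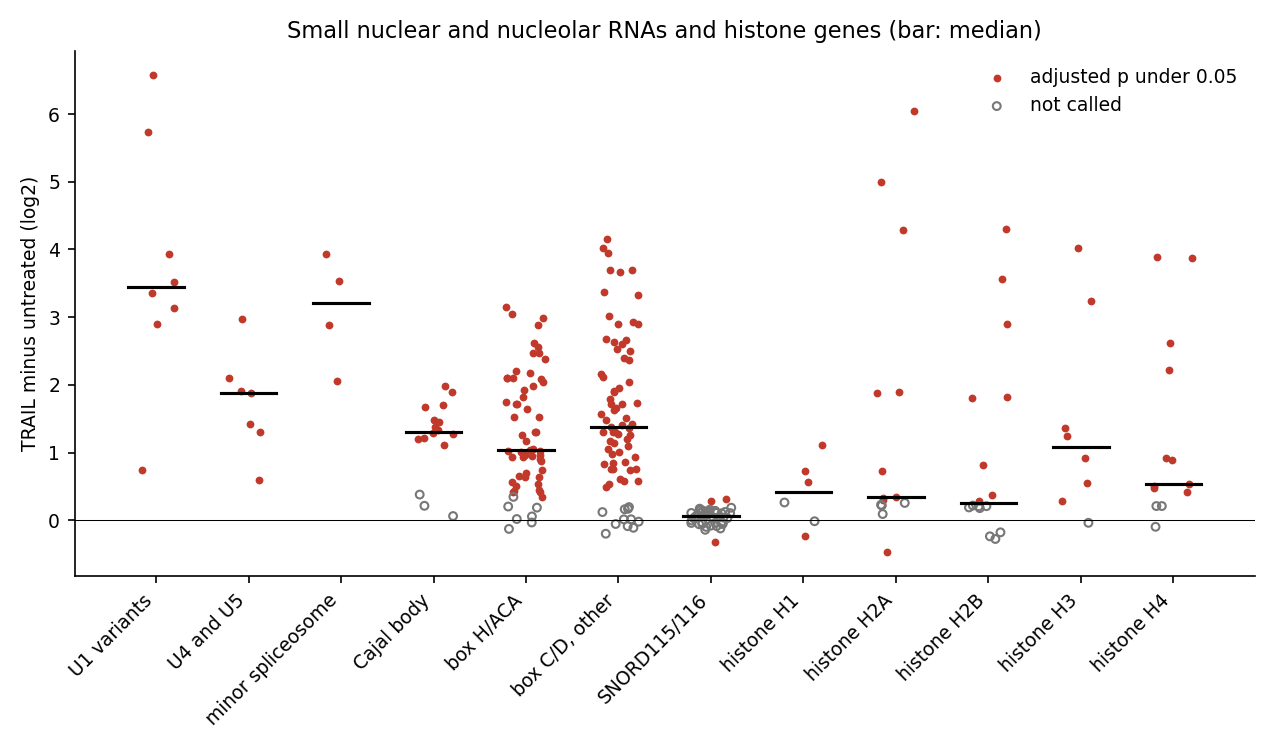
Change after TRAIL (log2, vertical axis) of each member of 12 families of small RNAs and histone genes; filled points passed an adjusted p of 0.05, open points did not, and bars are family medians. The U1 variants (median 3.44) and minor spliceosome RNAs (3.22) lie highest, and the SNORD115 and SNORD116 copies stay around 0.06. Histone classes hold members near 0 beside raised ones, the highest at 1.11 in H1 and at 3.88 to 6.04 in the other classes.

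Of 189 microRNA genes, 70 were higher (37.0%) and 11 lower (5.82%), with a median of 0.16 that was below 0 after median centring. Their median level of 3.08 lies in the second group by level, where 19.8% of all genes were higher and 2.01% lower. A probe for such a gene reads its hairpin or longer transcripts, so these values are not mature microRNA levels. The mature sequences of the genes that moved most clearly are given from RefSeq (GRCh38.p14) with the seed, bases 2 to 8, in capitals, and the 3′ arm is shown for MIR425.
hsa-miR-425-3p: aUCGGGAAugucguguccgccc
hsa-miR-191-5p: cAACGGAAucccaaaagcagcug
hsa-miR-423-5p: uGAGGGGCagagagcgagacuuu
hsa-miR-15a-5p: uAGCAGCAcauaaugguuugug
hsa-miR-29a-3p: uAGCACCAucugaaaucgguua
hsa-miR-181b-5p: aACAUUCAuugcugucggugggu
No seed is shared among these 6. MIR425 and MIR191 lie next to each other on the minus strand of chromosome 3 (mature sequences at chr3:49020159-49020180 and chr3:49020672-49020694). MIR425 was at 4.28, 3.75 and 4.51 untreated and 9.09, 9.29 and 9.22 with TRAIL, and MIR191 at 4.62, 4.52 and 4.93 untreated and 7.95, 7.87 and 7.80 with TRAIL. The pair thus rose together, 32.4-fold and 9.06-fold. MIR423 rose by 2.52 ± 0.11. MIR181B1 and MIR29A fell by 2.19 ± 0.24 and 2.06 ± 0.18, and MIR15A, a repressor of BCL2, fell from 5.81, 5.91 and 5.96 to 4.26, 4.37 and 4.05. Over 632 long noncoding RNA genes, 45.7% were higher and 2.69% lower, with a median of 0.24 that turned to −0.05 after median centring.

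The 25 largest falls spanned 5.71-fold to 8.69-fold. They were HACD3, RWDD2B, PCGF6, PIGB, IDH3A, SLC71A2, CNOT7, SAMM50, MSMO1, TMEM254, HBE1, GYG1, UBR7, RBMS1, CPNE3, PRCP, PSMD5, ARL6IP5, LCP1, STARD3NL, TM9SF2, POT1, GALNT1, HSDL2 and PIGK, with an adjusted p of at most 4.45e-08 (limma). HACD3, a dehydratase of fatty acid elongation, was at 8.84, 8.91 and 9.01 untreated and 6.10, 5.07 and 6.23 with TRAIL. PIGB, a mannosyltransferase of GPI anchors, was at 7.65, 7.63 and 7.60 untreated and 4.68, 4.62 and 4.71 with TRAIL. CNOT7, a deadenylase of the CCR4-NOT complex, was at 9.52, 9.25 and 9.25 untreated and 6.82, 5.79 and 7.09 with TRAIL. The groups did not overlap, by the rule of choice, and TRAIL array 2 was the lowest for all 3. All 25 moved down in TTR cells as well, 12 of them past the threshold, with a median there of −0.54 against −2.63. The effect differed between the lines for all 25, but choosing them by the parental fall favours a smaller fall in TTR cells. RBMS1 and PCGF6 had features that fell by different amounts, from −2.62 to −0.04 and from −2.96 to −1.63.

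Of 22 citric acid cycle genes, which oxidise acetyl-CoA in mitochondria, 21 fell and 1 rose, with a median of −1.36, the lowest of the lists as deposited. IDH3A, the catalytic subunit of isocitrate dehydrogenase, went from 10.41, 10.48 and 10.62 to 7.85, 7.32 and 7.80, and SDHC, of succinate dehydrogenase, from 10.28, 10.20 and 10.28 to 8.01, 7.61 and 8.05. DLD and SUCLG2 fell by 2.08 ± 0.13 and 1.66. The respiratory chain fell in 47 of 68 cases with 3 rises (median −0.62), including NDUFA9 by 1.85 and the ATP synthase subunit ATP5F1A by 1.75, while ATP5ME rose by 0.89. Mitochondrial ribosomal proteins fell in 58 of 74 cases with 8 rises (median −0.82), as in MRPL49 by 2.13 and MRPL44 by 1.99. Glycolysis fell in 14 of 20 cases with 3 rises, PGK1 by 1.63 and LDHA by 1.23, while the regulator PFKFB3 rose by 1.08. When all genes were put in 10 equal groups by level, 67.6% were lower in the ninth and 70.2% in the tenth, the groups that hold the median levels of the respiratory chain (8.05, 69.1% lower) and of glycolysis (9.22, 70.0% lower), so the shares of these lists were near those of genes of like level. With cyclic loess the glycolysis median was −0.12, against −0.26 for all genes of the tenth group.

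Lipid and glycan synthesis fell at most steps with a few opposite moves. Of 22 genes of fatty acid synthesis and elongation 16 fell and 2 rose (median −1.18), with ELOVL7 and ACSL1 lower by 2.07 and 2.16. FASN, the synthase itself, rose from 7.53, 7.61 and 7.53 to 9.20, 9.07 and 9.13. Of 21 cholesterol genes 14 fell (66.7%) and 5 rose, with a median of −0.76. In the ninth group by level, which holds the list's median level of 7.48, 67.6% of all genes were lower. With cyclic loess the list's median was −0.42, against −0.25 for that group. SC5D fell by 2.23 ± 0.12, and SREBF1, a regulator of lipid synthesis, rose by 0.93 ± 0.10. CYP51A1 fell by 1.57, and its other feature by 0.13. GPI anchor synthesis fell in 14 of 24 cases (58.3%) with 1 rise, with PIGK lower by 2.51 ± 0.14 and PIGX by 1.92. In the eighth group by level, which holds that list's median level of 6.82, 54.1% of all genes were lower. With cyclic loess the GPI list's median was −0.59, against −0.14 for that group. Asparagine-linked glycosylation fell in 20 of 25 cases with 1 rise (median −1.12), with ALG8 lower by 2.22 and the transferase subunit STT3B by 1.51, while dolichol kinase (DOLK) rose by 0.74.

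Of 40 proteasome genes 37 fell and none rose in the limma test (0 also at an unadjusted p under 0.05), with a median of −1.12. PSMC2, an ATPase of its cap, went from 9.68, 9.66 and 9.61 to 7.87, 7.44 and 7.81, and PSMA6, of its core, from 11.06, 10.88 and 10.86 to 8.92, 8.49 and 8.98. PSMD5, an assembly chaperone, fell by 2.60 ± 0.16. Of 50 ubiquitin-specific proteases 31 fell and 7 rose, with USP28 lower by 2.08. The nuclear pore and import lists fell in 36 of 42 cases with 1 rise (median −1.09), with the importin KPNA3 lower by 2.34 ± 0.16 and NUP93 by 1.90 ± 0.12. Of 60 RAB GTPases, which direct vesicles, 33 fell (55.0%) and 10 rose, and of 36 autophagy genes 21 fell (58.3%) and 7 rose. The RAB list's median level of 6.33 lies in the seventh group by level, where 43.9% of all genes were lower. That of the autophagy list, 6.64, lies in the eighth, where 54.1% were lower. RAB30 fell by 2.20 and ATG13 by 1.82, while ATG12 and the autophagosome protein MAP1LC3B rose by 1.61 and 1.11.

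Of 70 RNA polymerase II, general factor and Mediator genes 40 fell (57.1%) and 13 rose. That was below the 67.6% lower of all genes in the ninth group by level, which holds the list's median level of 7.42. The list's median change of −0.37 was −0.18 with quantile normalization and −0.05 with cyclic loess, near the −0.06 of all genes under both. HEXIM1, which holds the elongation factor P-TEFb inactive, went from 7.20, 7.34 and 7.13 to 10.81, 10.96 and 10.86. POLR2A, the largest polymerase subunit, rose by 1.56 ± 0.13, and the general factor genes GTF2H3 and GTF2H1 fell by 2.09 and 1.82. Of 50 genes for deadenylation, decapping and exonucleases 31 fell (62.0%) and 13 rose (median −0.56). Their median level of 7.21 lies in the eighth group by level, where 54.1% of all genes were lower. TOB1, which recruits CCR4-NOT to messengers, went from 6.33, 6.33 and 6.41 to 10.13, 10.41 and 10.61, and its relative BTG1 rose by 2.72 ± 0.11. The subunits CNOT8, CNOT6L and CNOT9 fell by 1.89, 1.80 and 1.45. ZFP36, which directs messengers with AU-rich elements to decay, was among the 25 largest rises at 4.35.

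Of 48 core spliceosome genes 11 rose and 24 fell, with a median of −0.27 that was above 0 with cyclic loess. The rises were led by SR proteins, which mark exons: SRSF5 went from 8.52, 8.40 and 8.55 to 11.07, 11.15 and 11.27, and SRSF7 and SRSF2 rose by 2.32 ± 0.11 and 1.62. SNRPB and PRPF4 fell by 1.25 and 1.21. Translation factors fell in 26 of 40 cases with 5 rises, with EIF2S1 lower by 1.96 and EIF4A2 higher by 1.87. The 65.0% lower was below the 70.2% of all genes in the tenth group by level, where the list's median level of 9.68 lies. With cyclic loess its median was −0.12, against −0.26 for that group. Of 20 aminoacyl-tRNA synthetases 19 fell and none rose in the limma test or at an unadjusted p under 0.05 (0 of 20, median −1.12), with KARS1 lower by 1.66 ± 0.11. Of 66 cytosolic ribosomal proteins 17 were higher (25.8%) and 21 lower (31.8%), near the shares over all genes of 28.9% and 29.9%, with a median of 0.02 that was below 0 with median centring and with mean centring. RPL28 rose by 1.30 ± 0.11 and RPL5 fell by 1.34 ± 0.10, with the 3 features of RPL5 between −1.34 and −0.41.

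**Figure D4:**
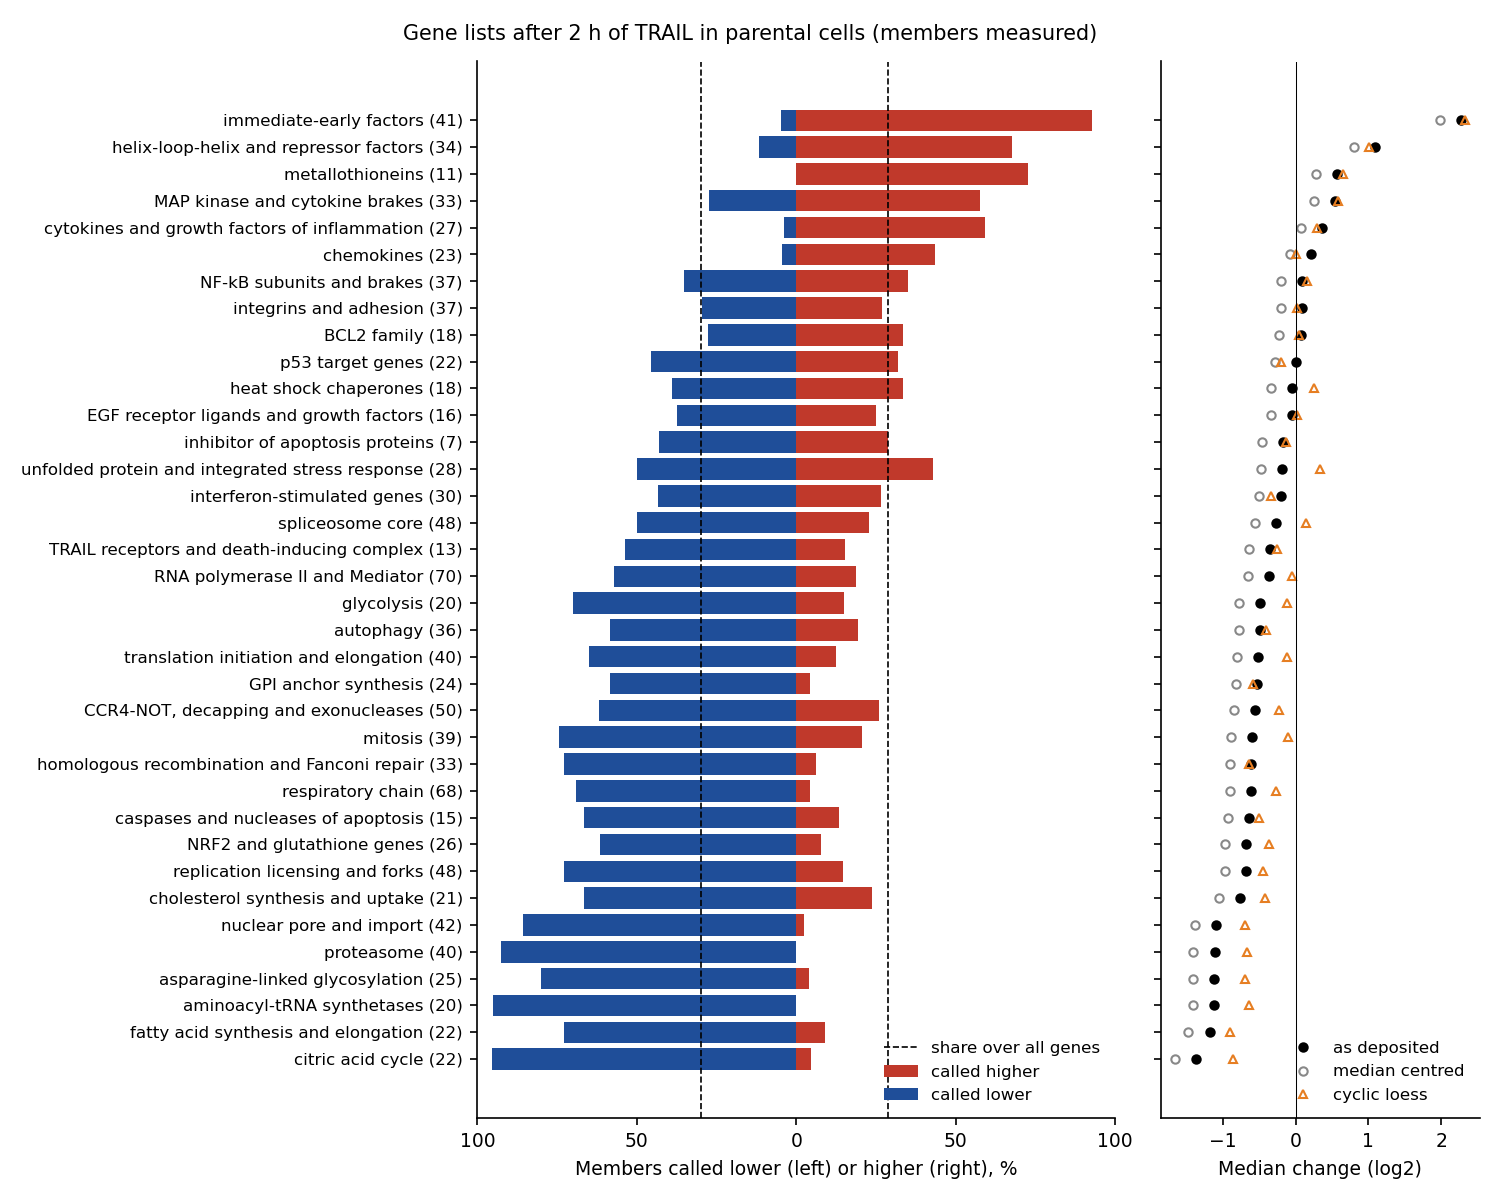
Left, the share of measured members of 36 gene lists called higher (red) or lower (blue) after TRAIL in parental cells, with the shares over all genes, 28.9% and 29.9%, as dashed lines; right, the median log2 change of each list as deposited and under 2 other scalings. The immediate-early factors stand at the top with a median of 2.27 and the citric acid cycle at the bottom with −1.36, while with cyclic loess fatty acid synthesis lies lower than the citric acid cycle (−0.90 against −0.86).

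Of 48 replication genes 35 fell and 7 rose (median −0.68), of 39 mitotic genes 29 fell and 8 rose (median −0.60), and of 33 genes of homologous recombination and the Fanconi pathway 24 fell and 2 rose (median −0.62). The 74.4% of mitotic genes that fell was near the 70.2% of all genes in the tenth group by level, where the list's median level of 8.98 lies, and with cyclic loess the mitotic median was −0.10 against −0.26 for that group. Of replication genes 72.9% fell, beside 67.6% of all genes in the ninth group, which holds their median level of 7.74. With cyclic loess the replication median was −0.45, against −0.25 for the ninth group. GINS2, of the replicative helicase, fell by 1.88 and the checkpoint kinase TTK by 1.10. POLE, the catalytic subunit of a replicative polymerase, rose from 6.38, 6.47 and 6.27 to 7.82, 7.91 and 7.88. CENPF and the proliferation marker MKI67 rose by 1.20 and 1.00. Of 26 NRF2 and glutathione genes 16 fell and 2 rose (median −0.68), with NFE2L2, the gene of NRF2, lower by 1.44. The 61.5% lower was below the 70.2% of the tenth group, which holds the list's median level of 8.56. With cyclic loess its median was −0.36, against −0.26 for that group.

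Of 37 integrin and adhesion genes 10 rose (27.0%) and 11 fell (29.7%), shares close to the 28.9% and 29.9% over all genes, with ICAM1, a leukocyte ligand, higher by 1.60 ± 0.18 and the integrin subunit ITGAV lower by 1.56 ± 0.12. Of 18 mesenchymal genes 5 rose (27.8%) and 8 fell (44.4%), with moesin (MSN) lower by 1.23 ± 0.10 and SNAI2 higher by 1.15. Of 17 genes of sulfate transport and activation 3 rose (17.6%) and 6 fell (35.3%). SLC26A2, a sulfate transporter that the title of the series names, went from 6.15, 6.66 and 6.14 to 4.80, 5.36 and 5.19, a fall of 1.20 ± 0.16 (adjusted p = 4.69e-06), and PAPSS2, PAPSS1 and SLC35B2, which make and carry the active sulfate donor, fell by 1.75, 1.52 and 1.54. The effect on SLC26A2 was 0.81 smaller in size in TTR cells (adjusted p = 0.0084). Of 15 housekeeping genes often used as references 10 fell (66.7%) and 1 rose, with HPRT1 lower by 2.11. Their median level of 9.24 lies in the tenth group by level, where 70.2% of all genes were lower. The list's median of −0.35 was above 0 with cyclic loess (0.08). In broad families, 129 of 480 ZNF genes rose (26.9%) and 120 fell (25%), and 88 of 329 solute carriers rose (26.7%) and 103 fell (31.3%). These shares were near the 28.9% and 29.9% over all genes. Both medians, 0.04 and 0.05, were below 0 with median centring, quantile normalization, mean centring and cyclic loess. Keratin-associated proteins, a hair family, were higher in 34 of 68 cases and lower in 1, at a median level of 3.73. That value lies in the fourth group by level, where 51.3% of all genes were higher and 8.03% lower. The median change of the keratin-associated list, 0.26, was below 0 after median centring. Of 211 genes named TMEM 60 rose (28.4%) and 96 fell (45.5%).

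Genes that rose at least 4-fold were shorter, at the median, than genes that fell as much. Among protein-coding genes with an annotated span in RefSeq, the median span was 4.42 kb for called rises of at least 4-fold, 27.3 kb for all genes tested and 38.8 kb for falls of at least 4-fold. Of the first set 83.1% spanned under 10 kb, against 5.0% of the last. Of the 25 largest rises 21 spanned less than 5 kb. In 5 equal groups by span of protein-coding genes, leaving out the genes of lowest level, 53.8% of the shortest were higher and 20.2% lower, against 18.3% and 60.2% in the fourth. In the longest group 17.7% were higher and 53.5% lower. Across the 16899 protein-coding genes, which are not independent replicates, Spearman's rho between span and change was −0.26 in parental and −0.10 in TTR cells. Within the 10 groups by level rho ranged from −0.40 to −0.006, the weakest in the lowest group.

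**Figure D5:**
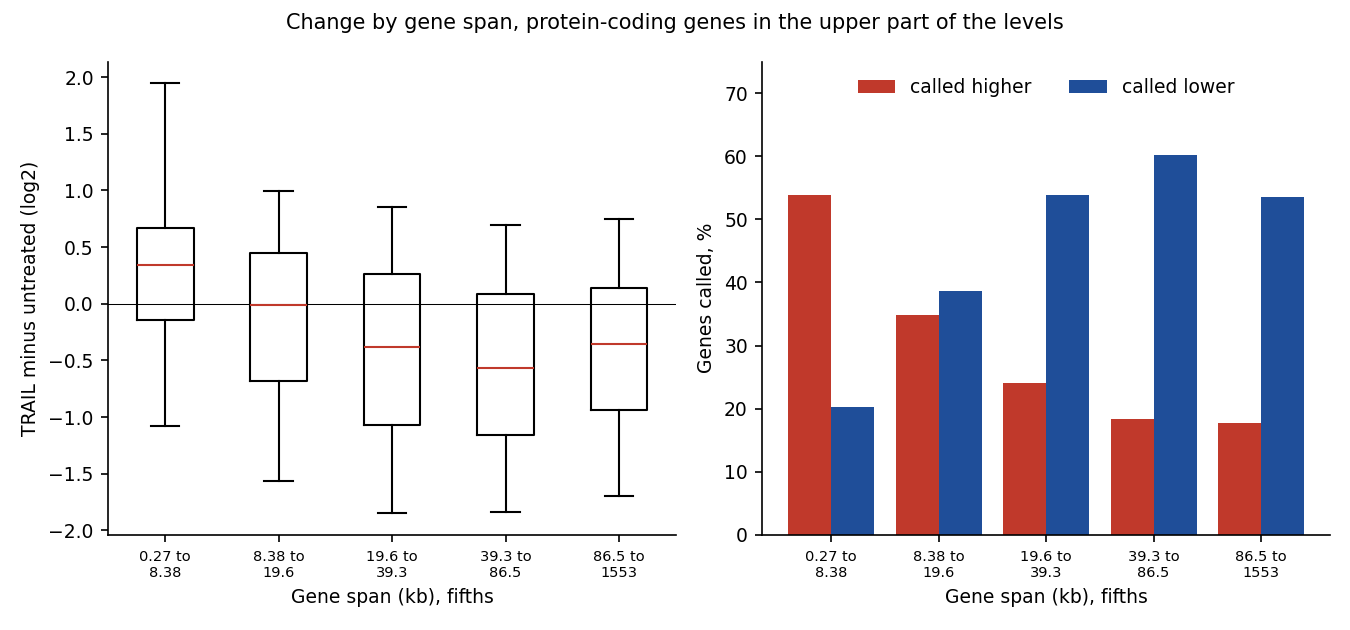
Left, change after TRAIL (log2) in 5 equal groups of protein-coding genes by gene span in kb, leaving out the third of all genes with the lowest level; boxes are quartiles with the median in red and whiskers run from the 5th to the 95th percentile. Right, the percentage of each group called higher or lower: 53.8% and 20.2% among the shortest, 18.3% and 60.2% in the fourth, and 17.7% and 53.5% among the longest.

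The 10 genes with the tightest bound on their change, among the third of genes with the highest level, were SMG9, SEC61B, ALG13, NFYA, ACP2, SLC25A1, NCAPG2, HMG20B, RIT1 and YBX1. None was called by limma (0 also at an unadjusted p under 0.05), and their 95% intervals reached at most 1.15-fold in either direction on the deposited scale. After median centring the same genes changed by −0.31 to −0.27.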

How the data were processed

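Per the labels' protocols, Trizol was used to isolate total RNA, from which biotinylated cRNA was prepared for one-colour Affymetrix arrays. The deposited table holds log2 levels that the authors made with RMA in Affymetrix Power Tools, per the submitters' processing notes; versions, settings and build: not given in the sources used here. Levels are relative within an array, so a change in total RNA per cell cannot be seen. The sample descriptions carry a tag, unexplained in the sources used here, that is shared by the parental arrays.

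Of the 33252 features, 19460 named 1 gene in the platform annotation supplied for this work, 1754 named several and 12038 none; for the 769 genes with several features the one with the highest mean was kept, giving 18417 genes. RefSeq (GRCh38.p14) gave gene types, spans and sequences and changed 0 symbols. The 12 arrays entered a single fit (limma 3.58.1, lmFit and eBayes, under R 4.3.3; 1 mean per group, no block, 8 residual and 7.87 prior degrees of freedom), two-sided, with Benjamini-Hochberg adjustment over all genes. With 3 arrays a side the smallest exact permutation p is 0.1, and no such test was run. The number of arrays limits the precision. On simulated data for this comparison with 18417 genes, 40% of changes of 0.5, 98% of 1, 96% of −1 and 100% of 2 (log2) were called, with 9 false calls. Only 50 genes were changed by each amount, at random over all levels. With so few changed genes the adjusted threshold is stricter than where 58.8% are called, so these shares do not carry over.

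Named genes were the 25 largest rises and falls among called genes without overlap between arrays, up to 5 called members of smallest p per list and direction, the 5 smallest p-values for the difference between the lines among them, the 10 tightest intervals, SLC26A2 and the TRAIL receptor list. Members of 57 lists, the lists themselves and the rule were chosen with earlier results of these data known. Lists were described by counts and medians, without a set test. Listed genes without a feature of their own were not analysed here. 18 alternative settings were run, 2 of them (mean centring and cyclic loess) chosen after seeing the data. Plots used Python 3.11.15 and matplotlib 3.10.9.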

Additional observations from a re-analysis of the deposited data

Results flagged for a closer look

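The effect of TRAIL in parental cells was tested against its effect in TTR cells, and the difference itself passed the threshold for 6852 of 18417 genes (limma, adjusted p under 0.05). Of the 25 largest parental rises 24 differed, each with a smaller rise in TTR cells, and of the 25 largest falls 25 differed, each with a smaller fall. Both sets were chosen by the parental change that the difference subtracts, so the choice itself favours smaller changes in TTR cells. How much of the difference comes from the choice was not tested. The 5 of smallest p, with the parental change subtracted from that in TTR cells, were H2AC17 (−2.61, adjusted p = 4.78e-08), RASD1 (−3.16), RRAD (−3.01), VAMP1 (−2.60) and LOC731157 (−2.34). VAMP1, a vesicle fusion protein, rose by 4.35 ± 0.12 in parental cells and by 1.74 in TTR cells. LOC731157, a long noncoding RNA gene, was at 6.33, 6.19 and 6.37 untreated and 11.07, 11.27 and 10.99 with TRAIL, and rose by 2.48 in TTR cells. Line and the unexplained tag of the sample descriptions cannot be told apart in this difference. No test for single outlying arrays was run. Parental TRAIL array 2 correlated with the untreated parental arrays at 0.928 to 0.930, and TRAIL arrays 1 and 3 at 0.941 to 0.943.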

How the results depend on the processing

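Of the 5 counts reported over all genes, the following moved by more than 1.5 times. With median centring 2328 genes were higher and 8608 lower, and with quantile normalization 3524 were higher. With every feature of the table tested, named or not, 17193 were called, 10004 higher, and 5711 called with at least a 2-fold change, since more features were tested. Leaving out 1 parental array at a time gave 9805 to 10475 called genes, 4597 to 5117 higher and 5208 to 5380 lower, 2990 to 3362 at least 2-fold, and 6123 to 6912 differing between the lines. The replicate numbers do not establish a pairing: correlations of same-numbered deviations were 0.11, 0.06 and 0.06, although each was the highest for its number. With the replicate block 11216 genes were called over all 12 arrays and 10501 over the 6 parental arrays, and 7441 differed between the lines.

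Changes of named genes changed sign in 9 of the recomputations. With quantile normalization CASP8 was at 0.075 and FAS at −0.22. With cyclic loess CASP8 was at 0.14, FADD at 0.11, TNFRSF1A at 0.055 and FAS at −0.25. FAS was at −0.24 with median centring, −0.019 with mean centring and between −0.017 and 0.087 when 1 parental array was left out. The cause was not tested. In 10 other recomputations a named gene lost its call and in 10 it gained one, and 3621 kept direction and call. List medians moved by more than the spread between arrays in 193 recomputations and by less in 759. The 75 recomputed differences between the lines of the 5 named genes kept direction and call. Low levels limit what can be read, since no measure of signal over background was used. The simulation recovered 40% of changes of 0.5 over genes of all levels, so it does not measure this limit.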
